A study of Mus musculus with 16 samples.

Results

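The question was whether the effect of losing Nogo-A on gene expression in the trigeminal ganglion differs between the embryo and the young animal. All 16 libraries of the series entered, in 4 groups of 4: ganglia of wild-type mice (WT) and of Nogo-A knockout mice (KO), each at embryonic day 14 (E14) and at postnatal day 25 (P25). Each library held polyadenylated RNA of 1 whole ganglion, prepared with a stranded kit. The labels give neither the knockout allele, the strain, a treatment nor a sex. The quantity tested for each gene was the log2 difference between KO and WT at P25 minus the same difference at E14, called the interaction here. A positive interaction means that KO stands higher relative to WT at P25 than it does at E14. Of the 25719 gene identifiers listed, 15109 had enough counts to be tested.

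Sensory neurons of the face have their cell bodies in the trigeminal ganglion, wrapped by satellite glia, with Schwann cells along the axons and vessels, fibroblasts and immune cells between them. Rtn4 encodes several proteins, of which Nogo-A is the longest. At the cell surface it is bound by a receptor complex of Rtn4r, Lingo1 and either Ngfr or Tnfrsf19, and by S1pr2, and it acts through RhoA and ROCK on the cytoskeleton of the growth cone. Its best known role is to hold back the growth of neurites. Around E14 trigeminal axons are still growing and neurons and glia are being formed. At P25 the axons are myelinated and the sensory neurons carry their adult channels and receptors.

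Library totals ran from 15532373 to 29562379 estimated counts. Sensory neuron genes, a list of 26 that includes Trpv1 and Calca, were present as a whole in every group. Their summed level was 8172 to 12276 CPM (counts scaled to a common library total) in E14 libraries and 10620 to 11984 CPM in P25 libraries. For 1 of the 26 a group had no counts at all. Some libraries stood apart in values that touch results below. In E14 WT replicate 2, GC content and transcript length accounted for 55.9% of the gene-wise deviations from the stage mean, against 1.15% to 38.5% in the other libraries. P25 KO replicate 4 differed from the other P25 KO libraries in immediate early and glucocorticoid-responsive genes. P25 WT replicate 2 was high in interferon-stimulated genes. Counts of the Y-linked genes Ddx3y, Eif2s3y, Kdm5d and Uty were all 0 in replicates 1 and 3 of both E14 groups. At P25 they were 0 in WT replicate 3 and in KO replicates 1 and 4, so the P25 genotypes were not balanced in them. With their level as a covariate 0 genes were called for the interaction. E14 KO replicate 2 had the lowest and P25 WT replicate 4 the highest level of ribosomal protein genes in its group. Whether a ganglion has fewer cells of a type or less RNA per cell cannot be told apart in whole tissue.

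No gene passed the test for the interaction (percent called 0.0%, edgeR quasi-likelihood test with Benjamini-Hochberg adjustment). The lowest adjusted p was 0.262. At an unadjusted p under 0.05 there were 647 genes (4.28%), of which 371 were positive (2.46%) and 276 negative (1.83%). This was fewer than the 755 expected by chance at that threshold. With limma and quality weights there were 2919 such genes, and the edgeR test without E14 WT replicate 2 gave 1343. DESeq2 called 8 genes (0.053%), limma with library quality weights called 32, and the edgeR test without P25 KO replicate 4 called 7, all of them immediate early genes. The limma weights ran from 0.084 for E14 WT replicate 2 to 4.61 for P25 KO replicate 2, so libraries counted very unequally there. All these fits use the same libraries and are not independent of the main test.

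The precision behind this differed with the level of a gene. The median 95% interval of an interaction reached 0.70 log2 units to either side of the estimate. It reached 0.61 for the 9873 genes at a mean of 10 CPM or more and 1.13 for the 5236 genes below. For 7074 of the 9873 genes (71.6%) the interval lay wholly between -1 and 1, so that a change of the genotype difference by a factor of 2 or more lay outside it. Over all genes tested the interval lay in that range for 7855 (52.0%). For the remaining genes the interval reached past that range on at least 1 side.

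The genotype differences at the 2 stages had little in common across genes. They share no library, and Pearson's r between them was 0.0016 over all 15109 genes and 0.13 over the genes at 10 CPM or more. The genes are not independent replicates. An unadjusted p under 0.05 was found for 735 genes at E14 (4.86%) and 282 at P25 (1.87%), where 755 would be expected by chance at each stage. It was found for 35 genes at both stages, 20 with the same sign and 15 with opposite signs. The median size of the genotype difference was 0.18 log2 units at E14 and 0.13 at P25, and estimation error enters both.

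**Figure D1:**
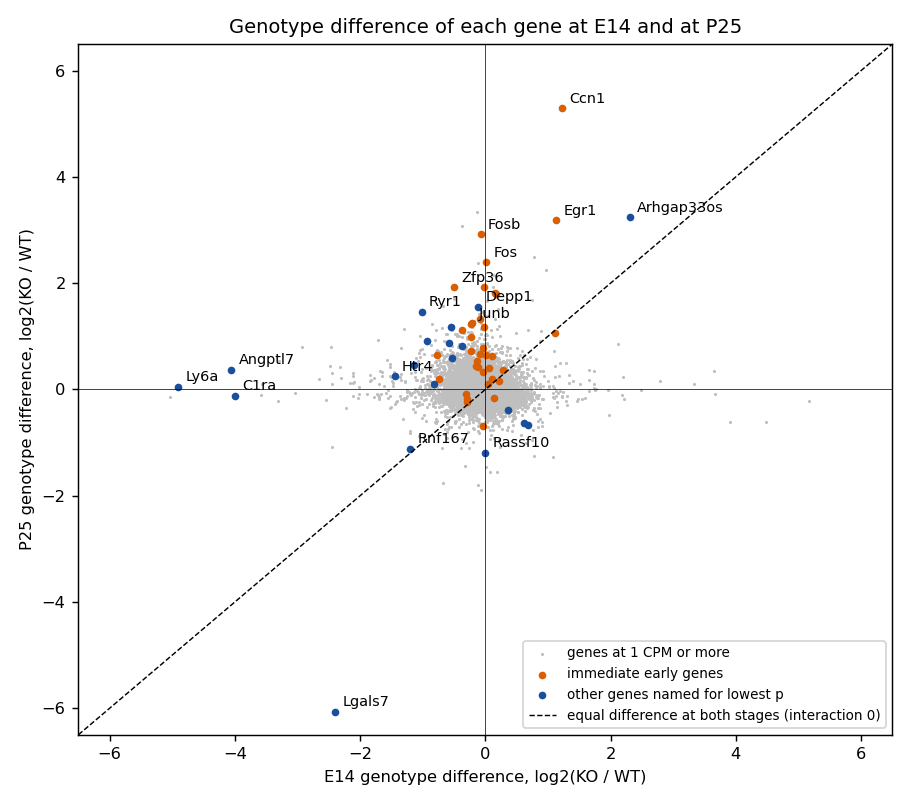
Each point is 1 gene with a mean of at least 1 CPM, with the log2 difference between KO and WT at E14 on the horizontal axis and at P25 on the vertical axis (values beyond 6.5 are drawn at the edge). The dashed line marks an interaction of 0. Immediate early genes in orange lie mostly above it, with Ccn1 at 5.29 on the P25 axis, and Rnf167 lies close to it. Ly6a, Angptl7 and C1ra were at or near 0 counts in E14 KO, so their position on the horizontal axis depends on the constant added to low counts.

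Taken alone, the E14 genotype difference passed the test for 3 genes (0.0199%), all lower in KO, among them Lgals7 and Rnf167. The P25 difference passed for 7 (0.0463%). Ccn1, Depp1 and Zfp36 were the 3 higher in KO (0.0199%), and 4 were lower (0.0265%), among them Rassf10, Lgals7 and Rnf167. The interaction passed the test for none of these, so a difference found at P25 and not at E14 was not shown to differ between the stages.

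Against this stood the change from embryo to young animal, which was shared by the genotypes. From E14 to P25, 9001 genes changed in WT (59.6% of those tested) and 9032 in KO (59.8%). The same 7699 genes changed in the same direction in both, and the 2 developmental changes had a Pearson's r of 0.951 across genes. The median size of the developmental change in WT was 0.77 log2 units, and that of the interaction was 0.24. Estimation error enters these sizes, and the median SE of the interaction was 0.34, larger than its median size. A further 1299 genes passed the test in WT alone and 1330 in KO alone. None of these passed the test of the difference itself, where the lowest adjusted p among them was 0.262.

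Just 3 genes passed the developmental test in both genotypes with opposite signs: Mdm4, Ryr1 and the unnamed transcript A930004J17Rik. They were singled out after their values were seen. Mdm4, which encodes a brake on the p53 tumour suppressor, fell by 0.57 log2 units from E14 to P25 in WT (adjusted p = 0.0108) and rose by 0.55 in KO (adjusted p = 0.0133). Ryr1, a calcium release channel of the endoplasmic reticulum, fell by 1.44 in WT (adjusted p = 0.00065) and rose by 1.04 in KO (adjusted p = 0.00772). The interaction is the difference of these same numbers, and its adjusted p was 0.466 for Mdm4 and 0.262 for Ryr1.

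**Figure D2:**
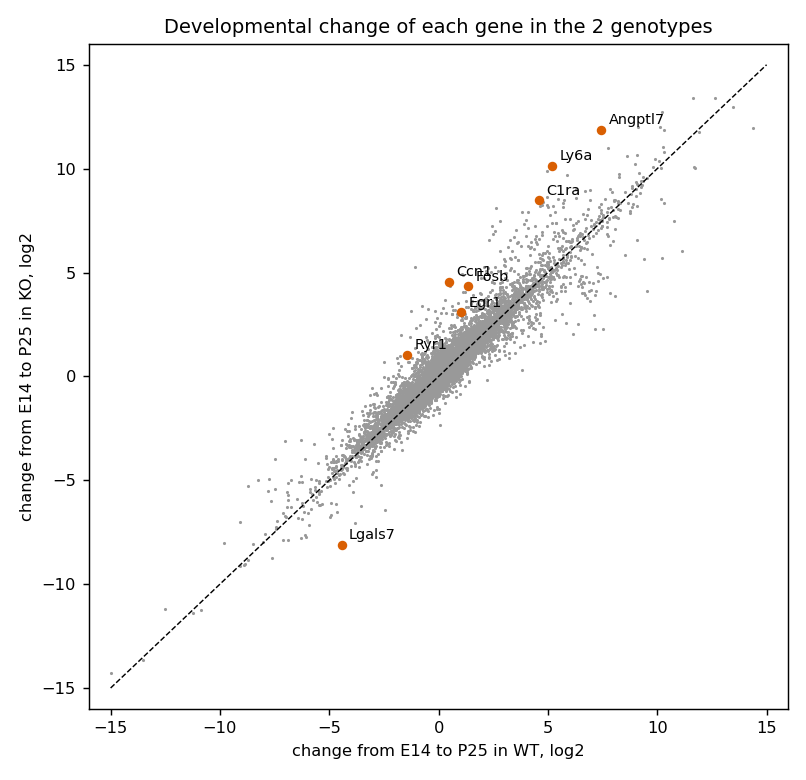
Each point is 1 of 15109 genes, with its log2 change from E14 to P25 in WT on the horizontal axis and in KO on the vertical axis. The dashed line marks equal change. Most genes lie close to the line (r = 0.951), and the labelled genes, chosen for their distance from it, are shown in orange. Ryr1 lies in the quadrant of a fall in WT and a rise in KO.

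For Rtn4 itself no dependence on stage was detected. It lies at GRCm38 chromosome 11, 29692947 to 29744331 (ENSMUSG00000020458). In E14 WT it stood at 328, 144, 521 and 444 CPM and in E14 KO at 291, 405, 260 and 236 CPM. In P25 WT it stood at 494, 542, 512 and 406 CPM and in P25 KO at 364, 380, 345 and 384 CPM. The genotypes overlapped at E14, with the lowest value in E14 WT replicate 2, and did not overlap at P25, where KO was lower. The log2 difference was -0.27 (SE 0.26) at E14 and -0.41 (SE 0.26) at P25. The interaction was -0.14 (SE 0.37, 95% interval -0.92 to 0.64, adjusted p = 0.997), and it took the opposite sign in 3 of the alternatives tried. A gene total adds all transcripts of Rtn4, including those of the shorter proteins Nogo-B and Nogo-C, so it does not isolate the deleted form. On the opposite strand Rtn4 overlaps Eml6, so the share of each in these counts is uncertain.

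The genes that carry the Nogo-A signal were described next. Of 22 tested genes of this pathway, 17 had a positive and 5 a negative interaction, and none passed the test. Their median interaction was 0.13, against 0.05 over all genes tested. Only Rock2 had an unadjusted p under 0.05 (1 of 22 against the 2.46% of all genes). For 16 of the 22 the 95% interval lay between -1 and 1. Without E14 WT replicate 2 the median was -0.01 and 10 of 22 were positive.

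Among the receptors, Rtn4r had an interaction of 0.17 (SE 0.32), Lingo1 of 0.28 (SE 0.25) and Ngfr of 0.23 (SE 0.23). Tnfrsf19, which can take the place of Ngfr, had -0.28 (SE 0.45), and S1pr2 had 0.02 (SE 0.34). The relatives Rtn4rl1 and Rtn4rl2 had 0.01 (SE 0.23) and 0.28 (SE 0.30). None of these had an unadjusted p under 0.05. Lingo1 serves as an example of a receptor gene: it stood at 171, 303, 196 and 165 CPM in E14 WT and at 171, 207, 168 and 172 CPM in E14 KO. At P25 it stood at 140, 115, 151 and 123 CPM in WT and at 150, 135, 122 and 146 CPM in KO. The genotypes overlapped at both stages, and E14 WT replicate 2 was again the outlying library, here on the high side.

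Of the other inhibitors that use the same receptor complex, Mag of myelinating glia had an interaction of 0.14 (SE 0.34) and Omg had 0.82 (SE 0.87). Rhoa had -0.19 (SE 0.23) and Rock1 had 0.67 (SE 0.68). Rock2, a kinase downstream of RhoA, stood at 8.62, 1.22, 16.9 and 14.99 CPM in E14 WT and at 4.55, 8.87, 5.48 and 4.19 CPM in E14 KO. It stood at 21.5, 25.9, 24.7 and 15.6 CPM in P25 WT and at 29.9, 30.9, 25.6 and 33.5 CPM in P25 KO. The genotypes overlapped at both stages, and the low E14 WT value belonged to replicate 2. The interaction of Rock2 was 1.30 (SE 0.61, adjusted p = 0.993 with edgeR), and limma with quality weights gave 1.73 (adjusted p = 0.0376).

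Among 20 reticulon and endoplasmic reticulum shaping genes the median interaction was 0.03 and none had an unadjusted p under 0.05. Among 22 genes of RhoA, ROCK and cofilin signalling it was 0.16 and 1, Rock2, did. Without E14 WT replicate 2 that median was -0.04, with 8 of 22 positive. Among 40 axon guidance genes it was 0.22, with 33 positive (82.5%, against 55.4% of all genes tested), and 1 had an unadjusted p under 0.05. That gene was Ntn1, a secreted guidance cue, with an interaction of 0.96 (SE 0.39, adjusted p = 0.993). With any 1 library left out, the median of the axon guidance list lay between 0.11 and 0.30. The number positive lay between 24 and 34, and was 24 without E14 WT replicate 2. With offsets for GC content and transcript length the median was 0.08, with 25 positive. Among 21 genes of axon growth and injury the median was 0.07.

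The gene with the lowest p for the interaction was Ryr1 (ENSMUSG00000030592, GRCm38 chromosome 7, 29003344 to 29125179). It stood at 3.99, 4.39, 2.90 and 2.15 CPM in E14 WT and at 1.90, 1.21, 1.86 and 1.67 CPM in E14 KO. In the P25 libraries it stood at 1.57, 1.01, 1.00 and 1.35 CPM in WT and at 3.05, 2.11, 4.79 and 3.69 CPM in KO. All KO libraries were below all WT libraries at E14 and above all of them at P25. The log2 difference was -1.02 (SE 0.32) at E14 and 1.46 (SE 0.32) at P25, and the interaction was 2.48 (SE 0.45, 95% interval 1.54 to 3.41, adjusted p = 0.262). DESeq2 gave 2.48 with an adjusted p of 0.0014, and limma with quality weights gave 1.75 with an adjusted p of 0.0819 (interaction of Ryr1). Zfp36, Lgals7 and Arhgap33os, described below, lie near Ryr1 on GRCm38 chromosome 7, with starts at 28376784, 28863853 and 30515122. Whether the genotype differences of these neighbouring genes have separate sources was not tested. On the opposite strand Ryr1 overlaps unnamed gene models. Reads of such pairs cannot be told apart here, because no source used here states the strand setting. Further genes described here overlap a model on the opposite strand, among them Junb (with Prdx2), Zfp36, Txnip, Mdm4, Spaca6 and Lgals7.

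Such a reversal without overlap in both stages occurred in 11 of 15109 genes (0.0728%). The number to be found by chance was not computed. In 6 of them (0.0397%) KO was lower at E14 and higher at P25, among them Ryr1, Fosl2, Fbxo17, Klhl6 and Mtmr12. In the other 5 (0.0331%) KO was higher at E14 and lower at P25: Tmem69, Khdrbs3, Pdk3, Rabl3 and Ubxn8. A similar number, 10 genes (0.0662%), was separated in the same direction at both stages. At 1 stage alone separation was more frequent: KO lay above WT for 79 genes at E14 (0.523%) and for 309 at P25 (2.05%), and below it for 168 at E14 (1.11%) and 193 at P25 (1.28%).

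Fosl2, which encodes a subunit of the AP-1 transcription factor, was the second of the reversed genes by p. It stood at 6.65, 13.5, 8.07 and 6.84 CPM in E14 WT and at 4.55, 6.30, 3.84 and 5.71 CPM in E14 KO. The P25 libraries placed it at 10.3, 12.6, 10.0 and 6.03 CPM in WT and at 14.0, 13.1, 15.3 and 18.3 CPM in KO. The groups did not overlap at either stage, and the gap was narrow, between 6.30 and 6.65 CPM at E14 and between 12.6 and 13.1 CPM at P25. The interaction was 1.42 (SE 0.37, adjusted p = 0.931). Tmem69 was the reverse case, with an interaction of -0.74 (SE 0.21, adjusted p = 0.993 with edgeR and 0.0363 with limma and quality weights): KO lay at 19.5 to 22.6 CPM at E14, above WT at 15.2 to 18.1 CPM, and at 10.1 to 12.05 CPM at P25, below WT at 13.9 to 15.46 CPM.

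An unadjusted p under 0.05 at each stage with opposite signs was found for 15 genes, of which a rule limited to 6 named Ryr1, Mdm4, Fosl2, Cdh19, Gnpnat1 and Lyplal1. Mdm4 stood at 26.6, 24.8, 31.1 and 24.1 CPM in E14 WT and at 17.2, 24.1, 16.5 and 15.9 CPM in E14 KO. For P25 the values lay at 19.6, 17.7, 20.7 and 13.9 CPM in WT and at 29.3, 28.2, 23.5 and 26.8 CPM in KO. KO lay above WT without overlap at P25, and at E14 KO replicate 2 reached the WT range. The interaction was 1.11 (SE 0.26, adjusted p = 0.466 with edgeR, 0.0306 with DESeq2 and 0.0359 with limma and quality weights).

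Cdh19, a cadherin of the Schwann cell lineage, had an E14 difference of -0.93 (SE 0.38), a P25 difference of 0.90 (SE 0.33) and an interaction of 1.83 (SE 0.50, adjusted p = 0.969 with edgeR and 0.0432 with limma and quality weights). Gnpnat1, an enzyme that makes the sugar donor of protein glycosylation, went the other way, with 0.68 at E14, -0.68 at P25 and an interaction of -1.36 (SE 0.38, adjusted p = 0.969). Lyplal1, related to lysophospholipases, had 0.61, -0.64 and -1.25 (SE 0.35, adjusted p = 0.975 with edgeR and 0.0363 with limma and quality weights). In these 3 genes the genotypes overlapped at E14.

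**Figure D3:**
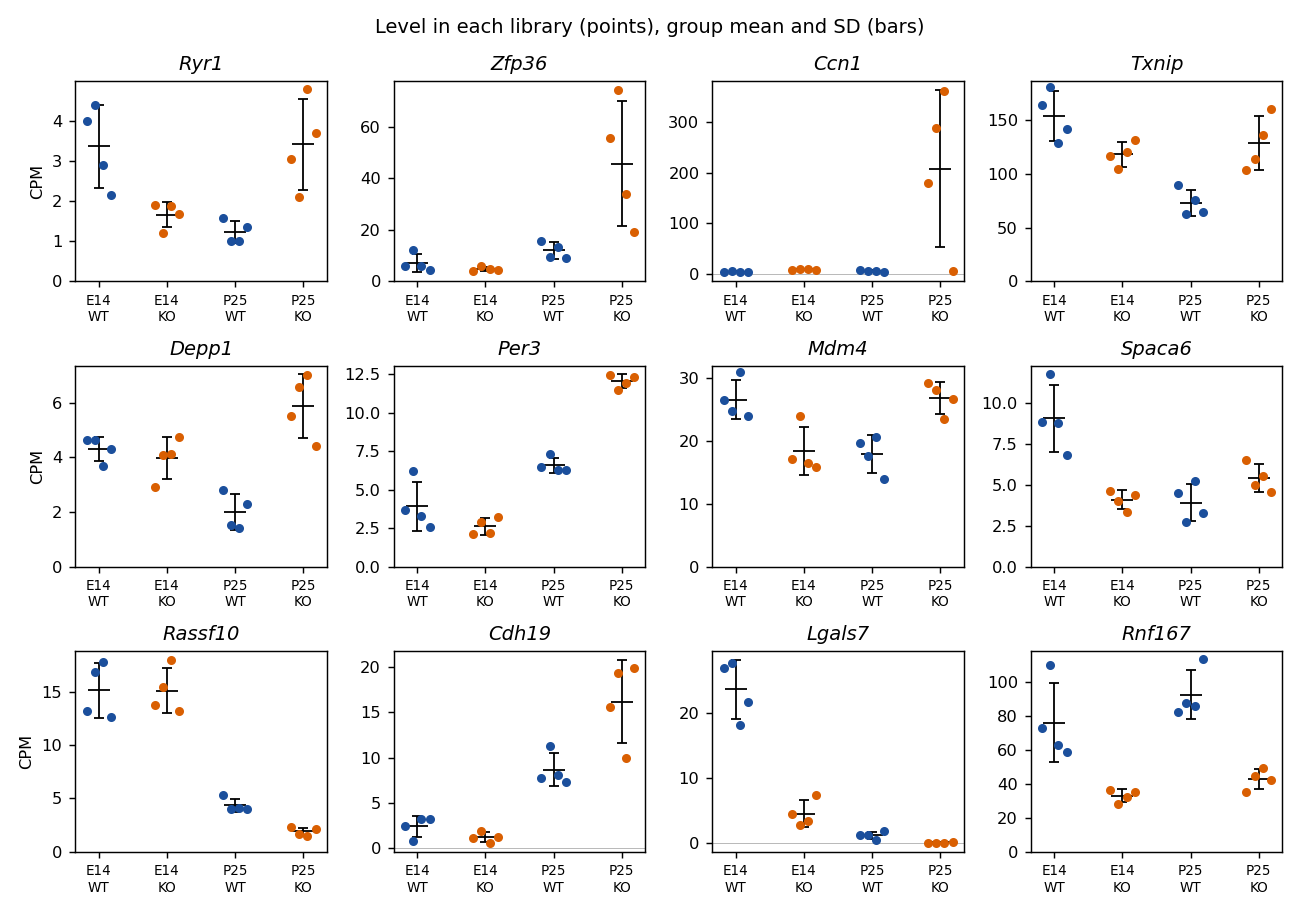
Each panel shows 1 gene, with the CPM of each of 4 libraries per group as points (WT blue, KO orange, replicates 1 to 4 from left to right) and the group mean and SD as bars. Ryr1 is low in E14 KO and high in P25 KO. Ccn1 is high in 3 of 4 P25 KO libraries, and Rnf167 is lower in KO at both stages.

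Immediate early genes are transcribed quickly and briefly after a cell is stimulated and mostly encode transcription factors and regulators of RNA decay. Of 36 tested, 32 had a positive interaction. At an unadjusted p under 0.05 there were 16 positive and 1 negative, Ier5, against 2.46% and 1.83% of all genes. The median interaction was 0.78, against 0.05 over all genes. The median genotype difference was -0.04 at E14 and 0.66 at P25. With any 1 of the 16 libraries left out the median interaction lay between 0.69 and 0.87. Like the other lists, this one was chosen with earlier results of these data known, and its members are not independent observations.

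Ccn1, a secreted matrix protein, had the largest interaction of the list. It stood at 3.85, 4.64, 2.84 and 3.94 CPM in E14 WT and at 7.58, 9.24, 10.4 and 8.33 CPM in E14 KO. At P25 it stood at 7.13, 5.23, 5.53 and 3.40 CPM in WT and at 179, 288, 362 and 4.68 CPM in KO. At E14 the KO libraries lay above WT without overlap, and at P25 KO replicates 1 to 3 lay far above WT while replicate 4 lay within the WT range. At P25 KO was higher than WT by 5.29 log2 units (SE 0.72, adjusted p = 0.00218). The interaction was 4.07 (SE 0.92, 95% interval 2.16 to 5.98, adjusted p = 0.426), and without P25 KO replicate 4 it was 4.48 (adjusted p = 1.92e-06).

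Zfp36 encodes a protein that speeds the decay of cytokine and other AU-rich messenger RNAs. It stood at 6.10, 12.02, 5.91 and 4.25 CPM in E14 WT and at 4.23, 5.97, 4.95 and 4.62 CPM in E14 KO. In the P25 libraries it stood at 15.7, 9.52, 13.5 and 9.27 CPM in WT and at 55.6, 74.1, 34.0 and 19.05 CPM in KO. At P25 the lowest KO library, replicate 4, was still above the highest WT library, and the genotypes overlapped at E14. At P25 Zfp36 was higher in KO by 1.93 log2 units (SE 0.35, adjusted p = 0.0461). Its interaction was 2.43 (SE 0.50, adjusted p = 0.262 with edgeR and 0.00458 with DESeq2).

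Egr1, a zinc finger transcription factor, stood at 20.4, 24.8, 19.7 and 16.1 CPM in E14 WT and at 43.6, 47.2, 59.5 and 27.2 CPM in E14 KO. The P25 libraries placed it at 62.0, 35.2, 42.7 and 26.04 CPM in WT and at 548, 516, 431 and 13.6 CPM in KO. As for Ccn1, KO lay above WT at E14 without overlap, and at P25 only replicate 4 was not raised and was the lowest of all P25 libraries. The interaction was 2.05 (SE 0.81), and 2.45 (adjusted p = 0.0157) without P25 KO replicate 4.

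Fos, the founding AP-1 subunit, stood at 44.1, 56.7, 25.8 and 3.06 CPM in P25 KO and at 4.02 to 7.25 CPM in P25 WT, with an interaction of 2.37 (SE 0.74). The nuclear receptor gene Nr4a1 stood at 163, 197, 260 and 39.9 CPM in P25 KO and at 34.9 to 55.4 CPM in P25 WT, with an interaction of 1.62 (SE 0.50). Junb stood at 43.4, 58.2, 41.3 and 15.2 CPM in P25 KO and at 12.4 to 19.9 CPM in P25 WT, with an interaction of 1.47 (SE 0.41, adjusted p = 0.969). In all 3 genes replicates 1 to 3 lay above WT and replicate 4 within or below its range. At E14 both genotypes of these genes overlapped, and the E14 differences were 0.02, 0.17 and -0.23.

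Without P25 KO replicate 4 the interaction passed the test for Ccn1, Egr1, Zfp36, Nr4a1, Fos, Ier2 and Junb, all of them positive and all in this list, with adjusted p from 1.92e-06 to 0.0335. With all 16 libraries none did. Other members stayed near 0 in the full fit: Egr2, a regulator of myelination, had an interaction of -0.04 (SE 0.41) with a similar difference at both stages (1.11 at E14 and 1.07 at P25), Myc had -0.05 (SE 0.24) and Nr4a2 had 0.07 (SE 0.37). Ier5 had -0.64 (SE 0.26).

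These 7 genes were high together in P25 KO replicates 1 to 3, and the sequence upstream of the start is shown for 5. Ier2 had no entry and Egr1 is not shown, so counts over the 5 do not cover all 7. The sequences hold the 200 bases before the annotated start from RefSeq (GRCm38.p6), 5′ to 3′ on the strand of the gene: Ccn1 at chr3:145649986-145650185 (minus strand), Zfp36 at chr7:28379229-28379428 (minus), Nr4a1 at chr15:101266646-101266845 (plus), Fos at chr12:85473690-85473889 (plus) and Junb at chr8:84978749-84978948 (minus). Capitals mark TGACG on either strand (read as CGTCA on the other), which is the core of the cyclic AMP response element, the CArG box, which is the core bound by serum response factor, and TATAAA.
Ccn1: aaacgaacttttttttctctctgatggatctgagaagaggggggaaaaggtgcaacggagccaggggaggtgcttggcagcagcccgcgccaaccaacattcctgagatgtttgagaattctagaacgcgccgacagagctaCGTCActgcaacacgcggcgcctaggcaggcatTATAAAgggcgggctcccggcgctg
Zfp36: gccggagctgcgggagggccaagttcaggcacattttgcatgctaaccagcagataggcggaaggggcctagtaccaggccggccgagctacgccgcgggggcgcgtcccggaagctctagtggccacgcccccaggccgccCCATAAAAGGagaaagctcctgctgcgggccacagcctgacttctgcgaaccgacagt
Nr4a1: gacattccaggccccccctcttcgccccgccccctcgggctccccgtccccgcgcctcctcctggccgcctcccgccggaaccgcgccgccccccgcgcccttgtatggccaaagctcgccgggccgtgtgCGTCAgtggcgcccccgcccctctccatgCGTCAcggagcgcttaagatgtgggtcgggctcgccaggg
Fos: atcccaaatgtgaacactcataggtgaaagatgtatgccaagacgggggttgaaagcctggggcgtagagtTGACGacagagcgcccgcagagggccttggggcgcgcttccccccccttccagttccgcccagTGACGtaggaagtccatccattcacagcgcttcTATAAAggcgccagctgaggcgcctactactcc
Junb: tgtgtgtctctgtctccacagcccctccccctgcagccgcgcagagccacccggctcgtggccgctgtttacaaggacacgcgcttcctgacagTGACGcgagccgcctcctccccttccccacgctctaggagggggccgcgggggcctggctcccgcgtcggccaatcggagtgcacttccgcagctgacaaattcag
The pentamer TGACG was present in 4 of the 5, Ccn1, Nr4a1, Fos and Junb, and the CArG box in Zfp36, 58 bases before its start. TATAAA was present in Ccn1 and Fos. No marked match overlapped another. Over the 11448 tested genes with an entry, the same 200 bases held TGACG in 2994 (26.15%), the CArG box in 123 (1.074%) and TATAAA in 698 (6.097%). Of 29 immediate early genes with an entry, TGACG was present in 16 (55.17%), the CArG box in 3 (10.34%; Dusp5, Egr2 and Zfp36) and TATAAA in 5 (17.24%). A match is a description of the letters and no evidence of binding.

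A related list holds targets of FOXO factors and of the glucocorticoid receptor, which respond to fasting, stress hormones and the time of day. All 21 tested members had a positive interaction, 6 with an unadjusted p under 0.05 (against 2.46% of all genes) and none past the adjusted threshold. The median was 0.70. Without P25 KO replicate 4 it was 0.26, with 14 of 21 positive. Per1 and Sgk1 are members of both this list and that of the immediate early genes. Both lists were chosen with earlier results of these data known, and their members share libraries, so these counts are no test.

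Within this list the P25 KO libraries held 2 patterns. Txnip and Depp1 were higher in all 4 libraries. Txnip, which limits glucose uptake, stood at 164, 180, 128 and 141 CPM in E14 WT and at 116, 104, 120 and 131 CPM in E14 KO. For P25 the values lay at 89.1, 62.4, 75.7 and 64.8 CPM in WT and at 103, 114, 136 and 160 CPM in KO. KO lay above WT without overlap at P25 and mostly below it at E14. The interaction was 1.19 (SE 0.24, adjusted p = 0.262 with edgeR and 0.0133 with DESeq2).

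Depp1, a FOXO target, stood at 4.63, 4.64, 3.70 and 4.29 CPM in E14 WT and at 2.91, 4.11, 4.14 and 4.76 CPM in E14 KO. At P25 it stood at 2.82, 1.52, 1.40 and 2.28 CPM in WT and at 5.52, 6.59, 7.03 and 4.40 CPM in KO. The genotypes overlapped at E14 and were separate at P25, where Depp1 was higher in KO by 1.55 log2 units (SE 0.26, adjusted p = 0.038). The interaction was 1.67 (SE 0.37, adjusted p = 0.414 with edgeR, 0.0166 with DESeq2 and 0.0496 with limma and quality weights). On the opposite strand Depp1 overlaps Rassf4.

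The other pattern was a high value in P25 KO replicate 4 alone. Fkbp5, which tempers the glucocorticoid receptor, stood at 30.2, 25.99, 30.7 and 99.4 CPM in P25 KO and at 33.1 to 48.0 CPM in P25 WT. Pdk4, a switch from glucose to fat oxidation, stood at 5.97, 5.69, 5.70 and 37.6 CPM in KO and at 4.42 to 5.89 CPM in WT. Mt2, a metallothionein, stood at 6.96, 17.4, 11.04 and 158 CPM in KO and at 4.49 to 18.6 CPM in WT. In these genes, and in Zbtb16, Plin4, Hif3a, Klf9, Mt1 and Tsc22d3, replicate 4 was the highest of all P25 libraries. It was the same library whose immediate early genes were low. The part of this library in the results is given by the values without it.

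**Figure D4:**
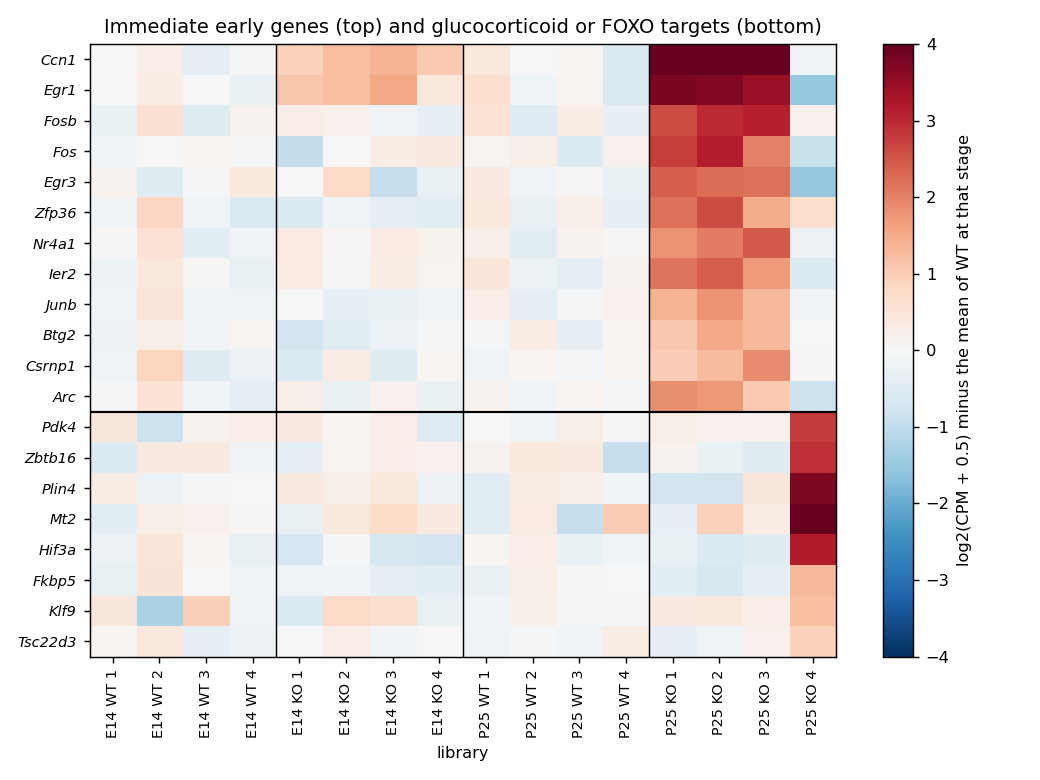
Rows are 12 immediate early genes (above the line) and 8 glucocorticoid or FOXO targets (below), chosen after their values were seen, and columns are the 16 libraries. Colour is log2(CPM + 0.5) minus the mean of the 4 WT libraries at that stage, cut at 4 units. P25 KO replicates 1 to 3 are red in the upper block and pale in the lower, and replicate 4 is the reverse, with Fkbp5 at 99.4 CPM.

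The 13 tested target genes of YAP and TEAD, which respond to cell stretch and shape, shared Ccn1 and its relative Ccn2 with the immediate early list. Of them 11 had a positive interaction, with a median of 0.38, and only Ccn1 had an unadjusted p under 0.05. Actin cytoskeleton targets of serum response factor had a median of 0.10 over 17 genes, with 1 gene, Tagln, at an unadjusted p under 0.05 (interaction 0.95, SE 0.35).

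Per3, a component of the circadian clock, stood at 3.67, 6.22, 3.30 and 2.54 CPM in E14 WT and at 2.15, 2.89, 2.16 and 3.24 CPM in E14 KO. In the P25 libraries it stood at 6.48, 7.29, 6.28 and 6.26 CPM in WT and at 12.5, 11.51, 11.96 and 12.3 CPM in KO. All P25 KO libraries lay above all other libraries, with little spread, and the genotypes overlapped at E14. The P25 difference was 0.88 (SE 0.24, adjusted p = 0.791), and the interaction was 1.45 (SE 0.35, adjusted p = 0.575).

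Rassf10, a member of the Ras association domain family, had the lowest p among genes with a negative interaction. It stood at 13.2, 16.8, 17.7 and 12.6 CPM in E14 WT and at 13.8, 15.4, 17.9 and 13.2 CPM in E14 KO. The P25 libraries placed it at 5.27, 4.00, 4.13 and 4.02 CPM in WT and at 2.31, 1.68, 1.51 and 2.10 CPM in KO. The genotypes overlapped at E14 and were separate at P25, where Rassf10 was lower in KO with a log2 difference of -1.19 (SE 0.21, adjusted p = 0.0461). The interaction was -1.19 (SE 0.29, adjusted p = 0.575), and limma with quality weights gave -1.44 (adjusted p = 0.0359).

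Spaca6 had its difference at E14. It stood at 8.80, 11.8, 8.76 and 6.84 CPM in E14 WT and at 4.61, 4.01, 3.32 and 4.38 CPM in E14 KO, without overlap. For P25 the values lay at 4.47, 2.70, 5.20 and 3.25 CPM in WT and at 6.51, 4.999, 5.52 and 4.56 CPM in KO, with overlap. The interaction was 1.61 (SE 0.35, adjusted p = 0.329 with edgeR and 0.0166 with DESeq2). Lpp, a focal adhesion protein, had its larger difference at P25, without overlap, at 8.85 to 13.2 CPM in KO and 3.67 to 7.41 CPM in WT. Its interaction was 1.71 (SE 0.44, adjusted p = 0.931 with edgeR and 0.0359 with limma and quality weights).

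In 3 of the genes with low p the E14 KO libraries held almost no counts. Ly6a, a surface protein of stem and endothelial cells, had 13 counts in the 4 E14 WT libraries together and 0 in E14 KO. The WT level was 4.16-fold above a floor of 3 counts over the KO group, which ignores counting error in WT. Angptl7, a secreted protein of connective tissue, had 7 and 0, which put WT 2.24-fold above the same floor. C1ra, a protease of the complement system, had 23 and 1, a ratio of 22.1 with an exact 95% counting interval of 3.58 to 909. At P25 all 3 were expressed in both genotypes: C1ra at 6.64 to 7.77 CPM in WT and 6.18 to 7.71 CPM in KO, Ly6a at 4.45 to 8.72 and 4.36 to 8.53 CPM, Angptl7 at 13.5 to 18.3 and 20.1 to 24.8 CPM. The ranges overlapped for C1ra and Ly6a but not for Angptl7, and Angptl7 overlaps Mtor on the opposite strand. Their fitted interactions depend on the constant added to low counts and are not given.

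The counterpart of an interaction is a difference that holds at both stages. The average of the genotype differences passed the test for 6 genes (0.0397%), 3 higher and 3 lower in KO (0.0199% each). Of the 6, Ccn1 has been described, and its average of 3.25 (adjusted p = 0.00453) is made mostly of the P25 difference. With limma and quality weights the average of Ccn1 was 2.93 and did not pass (adjusted p = 0.379). The others reported here are Rnf167, Lgals7, Arhgap33os and Amd2, the last with a mean of 0.46 CPM.

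Rnf167, a ubiquitin ligase of endosomes and lysosomes, had a similar difference at both stages. It stood at 73.3, 110, 62.7 and 58.6 CPM in E14 WT and at 36.4, 28.3, 32.4 and 35.5 CPM in E14 KO. At P25 it stood at 82.7, 87.6, 86.1 and 114 CPM in WT and at 35.0, 44.8, 49.4 and 42.1 CPM in KO. KO lay below WT without overlap at both stages. The average difference was -1.16 (adjusted p = 0.000295), made of -1.20 (SE 0.20) at E14 and -1.11 (SE 0.19) at P25, and the interaction was 0.09 (SE 0.27, 95% interval -0.48 to 0.66). On the opposite strand Rnf167 overlaps Slc25a11, so the share of each in these counts is uncertain.

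Lgals7, a galectin of stratified epithelium, was lower in KO at both stages, and its level fell with age in both genotypes. It stood at 26.9, 27.6, 18.2 and 21.6 CPM in E14 WT and at 4.42, 2.75, 3.26 and 7.38 CPM in E14 KO. In the P25 libraries it stood at 1.13, 1.10, 0.359 and 1.78 CPM in WT, and in KO it had 1 count in replicate 4 and 0 in the others. The genotypes did not overlap at either stage. The E14 difference was -2.40 (SE 0.36), and at P25 the 110 counts of WT against 1 of KO gave a ratio of 102 with an exact 95% counting interval of 17.9 to 4054. The fitted interaction had an adjusted p of 0.968.

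Arhgap33os is named as an opposite-strand transcript, and the annotation used here places no other gene model over it. It stood at 0.183, 1.65, 0.284 and 0.263 CPM in E14 WT and at 4.23, 1.63, 2.68 and 2.86 CPM in E14 KO. The P25 libraries placed it at 0.0403 to 0.155 CPM in WT and at 0.833 to 1.14 CPM in KO. Only E14 WT replicate 2 reached the KO range. The average difference was 2.77 (adjusted p = 0.00706) and the interaction 0.93 (SE 0.83, 95% interval -0.81 to 2.67). Further genes separated in the same direction at both stages without passing the test included Srsf5, a splicing factor, with 0.47 at E14 and 0.44 at P25, and Cep89, a centrosomal protein, with -0.60 and -0.75.

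Genes of protein synthesis and respiration mostly had negative interactions. All 77 tested genes of cytosolic ribosomal proteins were negative, from -0.92 to -0.18, with a median of -0.56. None passed the test, and 19 had an unadjusted p under 0.05, against 1.83% of all genes. All 77 stood higher in KO at E14 (median 0.39) and all but 2 lower at P25 (median -0.16). Of 81 nuclear genes of oxidative phosphorylation 78 were negative, with a median of -0.44 and 18 at an unadjusted p under 0.05. Without P25 WT replicate 4 the median of this list was -0.23, with 13 positive and 4 at an unadjusted p under 0.05, and over all 16 leave-one-out fits that count ranged from 3 to 32. The 13 mitochondrially encoded genes had a median of 0.01.

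The libraries behind the ribosomal list overlapped. Its summed level was 21494 to 29828 CPM in E14 WT and 23190 to 41452 CPM in E14 KO, and KO replicate 2 had the low value. At P25 it was 10128 to 19046 CPM in WT and 10610 to 13137 CPM in KO, and WT replicate 4 had the high value. With any 1 library left out the median interaction lay between -0.75 and -0.35, and the number of genes with an unadjusted p under 0.05 between 1 and 49. The 77 genes share their libraries and are not 77 independent observations. Rpl32 serves as an example: its interaction was -0.83 (SE 0.32, adjusted p = 0.993), with 295 to 434 CPM in E14 WT and 309 to 766 CPM in E14 KO.

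The 28 tested interferon-stimulated genes had a median interaction of -0.81, with 26 negative and 4 at an unadjusted p under 0.05 (among them Xaf1, Gbp2 and Gbp3). In P25 WT replicate 2 their summed level was 831 CPM, against 338 to 445 CPM in the other P25 WT libraries and 355 to 375 CPM in P25 KO. Without that library the median was -0.21 and 8 were positive.

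Of 22 tested macrophage genes, 20 had a positive interaction, with a median of 0.36 and 4 at an unadjusted p under 0.05 (Csf1r, Itgam, Laptm5 and Cd74), against 2.46% of all genes. The median was 0.21 without E14 WT replicate 1, and 15 were positive without E14 WT replicate 4. The median difference was -0.46 at E14 and -0.10 at P25. Laptm5, a lysosomal protein of blood cells, stood at 15.3, 20.0, 12.7 and 14.6 CPM in E14 WT and at 7.204, 10.9, 8.45 and 8.67 CPM in E14 KO, without overlap. For P25 the values lay at 25.4 to 36.1 CPM in WT and at 27.1 to 35.8 CPM in KO. The interaction was 0.93 (SE 0.26, adjusted p = 0.993). The summed level of the list was 99.5 to 167 CPM in E14 WT and 79.6 to 106 CPM in E14 KO, so the list as a whole overlapped.

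For the main cell types of the ganglion, the median interaction was 0.02 over 26 sensory neuron genes, 0.04 over 20 satellite glia genes, 0.13 over 20 genes of myelinating Schwann cells and 0.15 over 33 cell cycle genes. Among the satellite glia genes 2 were positive and 2 negative at an unadjusted p under 0.05. Endothelial genes had 0.33 (17 of 20 positive) and fibroblast and matrix genes 0.33 (23 of 30 positive), with 2 endothelial genes and 1 fibroblast gene at an unadjusted p under 0.05 in the positive direction and the endothelial gene Sox18 in the negative (interaction -0.90, SE 0.36). The 4 tested melanocyte genes were all negative (median -0.40), and Tyrp1, a pigment enzyme also made by satellite glia, had -0.92 (SE 0.42, adjusted p = 0.993).

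Glial markers of the brain and spinal cord had a median of 0.43 over 16 genes, 15 of them positive. In 6 of the 16 a group had no counts at all, and the median over the other 10 was 0.15. In P25 WT replicate 3 the mean log2 level of the list was 1.317, against 3.00 to 4.05 in the other P25 WT libraries and 3.36 to 4.20 in P25 KO, and without a single library the median ranged from 0.26 to 0.99. The part of this list in other results was not tested.

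**Figure D5:**
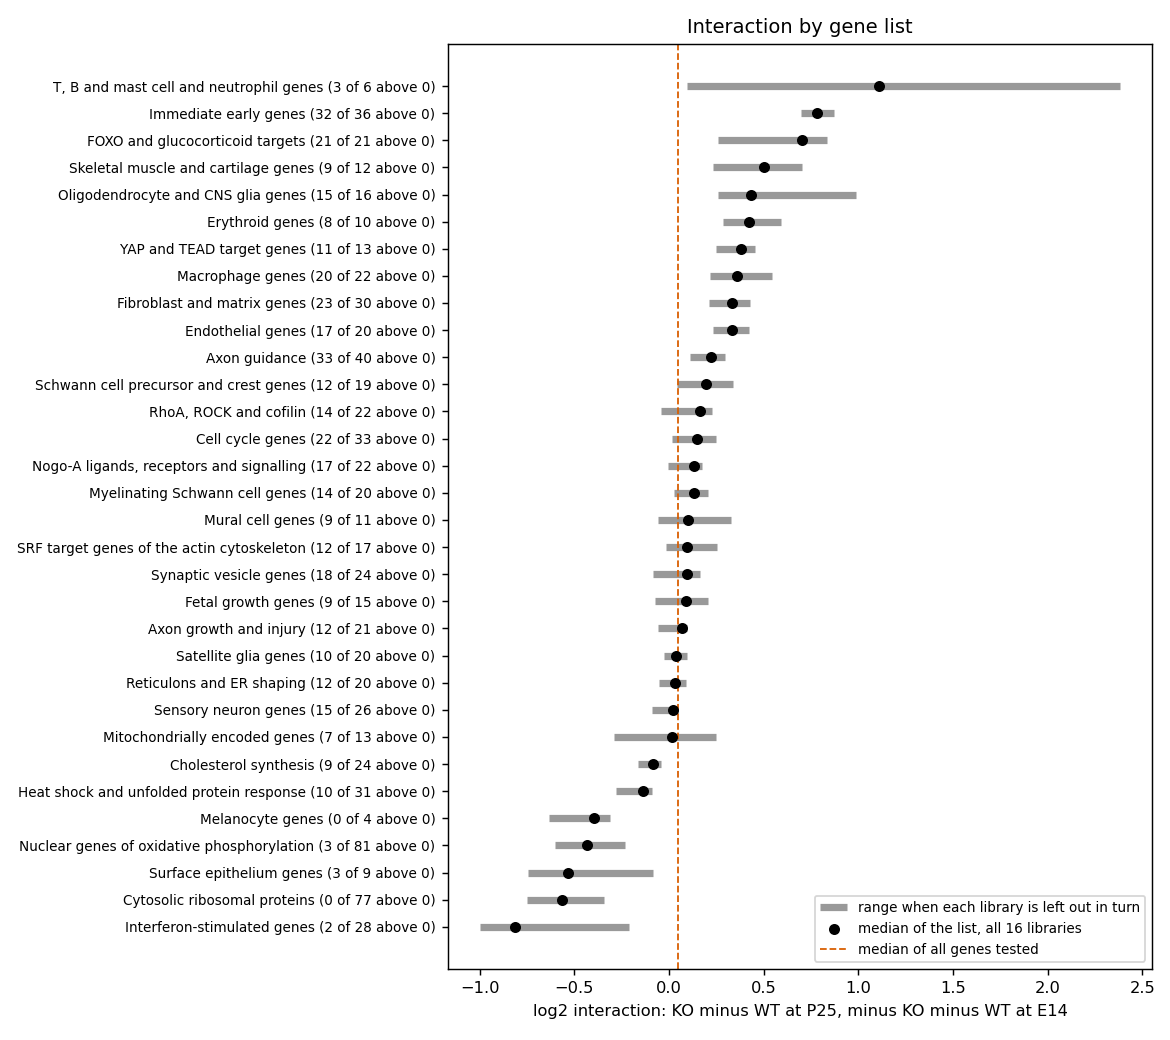
Each row is a gene list, with the number of its tested genes above 0. The black point is the median log2 interaction, the grey bar the range of that median when each of the 16 libraries is left out in turn, and the dashed orange line the median over all genes tested (0.05). Immediate early genes lie to the right with a short bar (0.69 to 0.87), and interferon-stimulated genes to the left with a long bar that reaches -0.21.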

How the data were processed

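RNA was sequenced from 16 trigeminal ganglia in 4 groups of 4, grouped by the sample titles. The authors deposited whole-number estimated counts for each gene. Tools named in the submitters' processing notes are kallisto 0.46, fastp 0.20.0 and DESeq2 1.32.0, with assembly GRCm39 and without role or order. No source used here states the transcript annotation or the strand setting. Symbols were found for 25614 of 25719 identifiers. Gene positions, length and GC content come from a GRCm38 annotation and were not converted. Library totals were 15532373 to 29562379.

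The test was edgeR 4.0.16 (R 4.3.3): TMM scaling, filterByExpr on the 4 groups, 1 quasi-likelihood fit to all 16 libraries, and Benjamini-Hochberg adjustment over 15109 genes, called at an adjusted p under 0.05. Standard errors follow from the F statistic, and 95% intervals from the total degrees of freedom, which add the prior ones to the residual ones. CPM use TMM-scaled totals. The fit was also run on simulated counts with known interactions. Those counts were drawn independently for each gene and library, so deviations shared by many genes of a library were not covered. The replicate error is that between ganglia. Per the labels each group had 4 animals, but 2 pairs of E14 library names share a number and differ in R or L, so these may share an animal. Counting intervals are exact and cover counting error only. Floors are a fixed 3 counts over a group and ignore counting error in the other group.

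Members and the 33 gene lists were chosen with earlier results of these data known. The rule for named genes took Rtn4, 24 genes by lowest interaction p at 1 CPM or more, up to 6 called for the average difference, up to 6 with opposite signs at both stages, and up to 2 members per list at an unadjusted p under 0.05. Unnamed gene models were left out. Genes of the immediate early, glucocorticoid and Nogo-A lists given beside these were picked to show the list. Some of the genes the rule took are not reported here.

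Alternatives were DESeq2 1.42.0, limma 3.58.1 voom with quality weights, RLE scaling, library totals alone, no filter and a filter of 1 CPM in 4 libraries, a replicate block, summed same-numbered ganglia, a Y-linked covariate, GC content and length offsets, robust dispersions, and leaving out each library. Figures were drawn with matplotlib 3.10.9.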

Additional observations from a re-analysis of the deposited data

Results flagged for a closer look

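Of 320 sets of 4 libraries (named genes and list means in each group), 23 held a library far from the other 3, where chance flags about 1 in 20. E14 KO replicate 2 accounted for 5 of them, E14 WT replicate 2 and P25 KO replicate 4 for 4 each. The causes were not tested.

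In P25 KO replicate 4 the mean log2 CPM of immediate early genes was 3.46 (others 4.56 or more) and that of FOXO and glucocorticoid targets 6.04 (others 4.88 or less). The same library was the highest for Angptl7 (24.8 CPM) and held the only count of Lgals7 (0.0397 CPM).

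E14 KO replicate 2 was highest in the mean log2 CPM of reticulon and endoplasmic reticulum genes (6.49), axon guidance genes (5.59) and synaptic vesicle genes (7.35), in Mdm4 (24.1 CPM), and in C1ra, with the only count of its group (0.0467 CPM). E14 WT replicate 2 was highest for Junb (21.2 CPM), Arhgap33os (1.65 CPM) and Col5a1 (292 CPM), and lowest for Xaf1 (0.183 CPM). E14 WT replicate 3 was highest in Nogo-A pathway genes (mean log2 CPM 5.86), E14 WT replicate 4 in fibroblast and matrix genes (5.92) and in Gbp3 (0.263 CPM, 0 in the others). E14 KO replicate 1 was highest in Ntn1 (4.55 CPM) and in macrophage genes (mean log2 CPM 1.29).

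In P25 WT, replicate 1 was highest for Rassf10 (5.27 CPM), replicate 2 highest for Gbp3 (11.1 CPM) and lowest for Cpa3 (0.548 CPM), and replicate 4 highest for Rnf167 (114 CPM) and Hspb1 (264 CPM).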

How the results depend on the processing

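The count of genes called for the interaction, 0 with edgeR, was 8 with DESeq2 (all positive) and 32 with limma voom and quality weights (28 positive, 4 negative). Over the leave-one-out fits it was 0 to 7, with 7 without P25 KO replicate 4. In the other alternatives it was 0. The number with an unadjusted p under 0.05, 647, was 1343 without E14 WT replicate 2, 1139 without E14 KO replicate 2, 2919 with limma voom and quality weights and 1077 with GC content and length offsets. The average genotype difference, with 6 calls, had 10 with DESeq2, 3 with the replicate block, and 5 to 9 when 1 library was left out.

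Of 1321 values of the interaction of named genes under 27 alternatives, 1296 kept their direction and side of the threshold, 18 passed it newly and 7 changed sign. The interaction of Rtn4 became 0.19 with limma voom and ranged from -0.39 to 0.12 when 1 library was left out, above 0 when E14 WT replicate 2 (0.12) or replicate 2 of E14 KO (0.018) was left out. The interaction of Rnf167 became -0.087 with limma voom and ranged from -0.14 to 0.20, below 0 without the same libraries. The interaction of Arhgap33os ranged from -0.29, without E14 WT replicate 2, to 1.23. The cause was not tested.

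Deviations of WT and KO libraries with the same replicate number from their group means had r from -0.39 to 0.03 at E14 and -0.16 to 0.15 at P25. WT and KO libraries with different replicate numbers spanned -0.36 to 0.47 at E14 and -0.36 to 0.40 at P25. With so wide a spread these values do not decide whether the replicate numbers pair the samples. The library names carry other numbers: 2, 4, 3 and 4 in E14 WT and 9, 11, 9 and 10 in E14 KO, with none shared between the genotypes. With the replicate block 0 genes were called for the interaction. The median interaction over all genes was 0.05, -0.02 without E14 WT replicate 2 and -0.01 with the offsets. Depth limits genes under 10 CPM, whose median interval reached 1.13 to either side.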
